A study of Homo sapiens with 24 samples.

Results

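The 10 genes described here encode a cytokine receptor chain (IL2RG) and kinases of cytokine receptors (JAK1, JAK2 and JAK3). They also encode the transcription factors those kinases activate (STAT5A and STAT5B), the feedback inhibitors CISH and SOCS2, and the kinases PIM1 and PIM2. They were chosen by gene symbol among the 15862 genes of the deposited expression table, and all 10 were listed and passed the filter on low values in every comparison. IL2RG is the common gamma chain, a subunit shared by the receptors for interleukins 2, 4, 7, 9, 15 and 21. Cytokine binding brings JAK1 and JAK3 together on the paired receptor chains, they phosphorylate STAT5, and STAT5 enters the nucleus and switches on targets that include CISH, SOCS2, PIM1 and PIM2. CISH and SOCS2 dampen the receptor signal, while the PIM kinases favour survival and growth. In T-cell precursors this route carries the interleukin 7 signal, and activating mutations in it are known in T-cell acute lymphoblastic leukaemia.

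The libraries came from LOUCY, a human T-cell acute lymphoblastic leukaemia line used as a model of the early T-cell precursor form, and JURKAT, a T-cell leukaemia line of more mature type. LOUCY was kept for 24 h in 250 nM JQ1 (n = 4 libraries), 500 nM I-BET151 (n = 4) or the solvent, 0.05% DMSO (n = 4), or was left untreated (n = 6), and JURKAT was left untreated (n = 6). JQ1 and I-BET151 are BET inhibitors, which displace bromodomain proteins of the BET family from acetylated histones. The comparison of the lines asks how they differ in these genes, and the inhibitor comparisons ask what BET inhibition changes in LOUCY. Each kind of leukaemia was represented by 1 line, no inhibitor was applied to JURKAT, the inhibitor doses differed, and no culture time is given for untreated cells. Every group was split evenly over 2 experiments, and nothing in the labels shows that replicates within an experiment were separate cultures, so p-values measure the spread between these libraries, which may be partly technical.

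Sequencing gave 4381134 to 7074198 reads per library in listed genes, of which each of the 10 genes had 6 to 4658. Levels are the authors' RPKM (reads scaled to gene length and library size), given as mean ± SD. They are relative amounts within a library, so fewer cells of a type and less RNA per cell cannot be told apart. Of 9 T-lineage markers, 7 reached 1 RPKM in LOUCY, where CD2 and CD5 stayed at or below 0.563 RPKM, and 8 reached it in JURKAT. The summed T-lineage markers ranged over 1041 to 1102 RPKM in JQ1 libraries, 821 to 1189 in I-BET151, 1602 to 2028 in DMSO, 1900 to 2479 in untreated LOUCY and 1543 to 2016 in JURKAT. Listed markers of other cells reached at most 1.51 RPKM except for MPO (up to 6.49 RPKM), CD79A (up to 583) and NKG7 (up to 211) in LOUCY, and CD79A (up to 21.9) and NKG7 (up to 1.95) in JURKAT. In LOUCY MS4A1 and PAX5 reached at most 0.917 and 0.269 RPKM and NCAM1 0.242 RPKM. In 3 libraries of experiment 2 (replicate 1 of I-BET151, replicate 1 of DMSO and replicate 2 of untreated LOUCY) expression fell most steeply with gene GC content, with slopes of -0.3135 to -0.2268 log2 units per 10 percentage points relative to their group, against -0.1245 to 0.1552 in the other 21.

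The lines differed in all 10 genes. In untreated LOUCY against untreated JURKAT, 7 were higher (IL2RG, JAK1, JAK2, JAK3, STAT5A, STAT5B and PIM1) and 3 lower (CISH, SOCS2 and PIM2), tested with limma on log2(RPKM + 1) at a Benjamini-Hochberg adjusted p under 0.05. Calls were common in that comparison, at 73.1% of the 11978 genes tested. In LOUCY, both inhibitors moved the pathway's parts in opposite directions: IL2RG, STAT5A and STAT5B fell, PIM1 and PIM2 rose, and the other 5 did not pass the threshold. Each inhibitor thus gave 5 calls among 10 genes, beside calls at 26.0% of the 11411 genes tested for JQ1 and 26.3% for I-BET151. The comparisons of JQ1 and I-BET151 share their DMSO libraries, so their similar results are not independent.

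**Figure D1:**
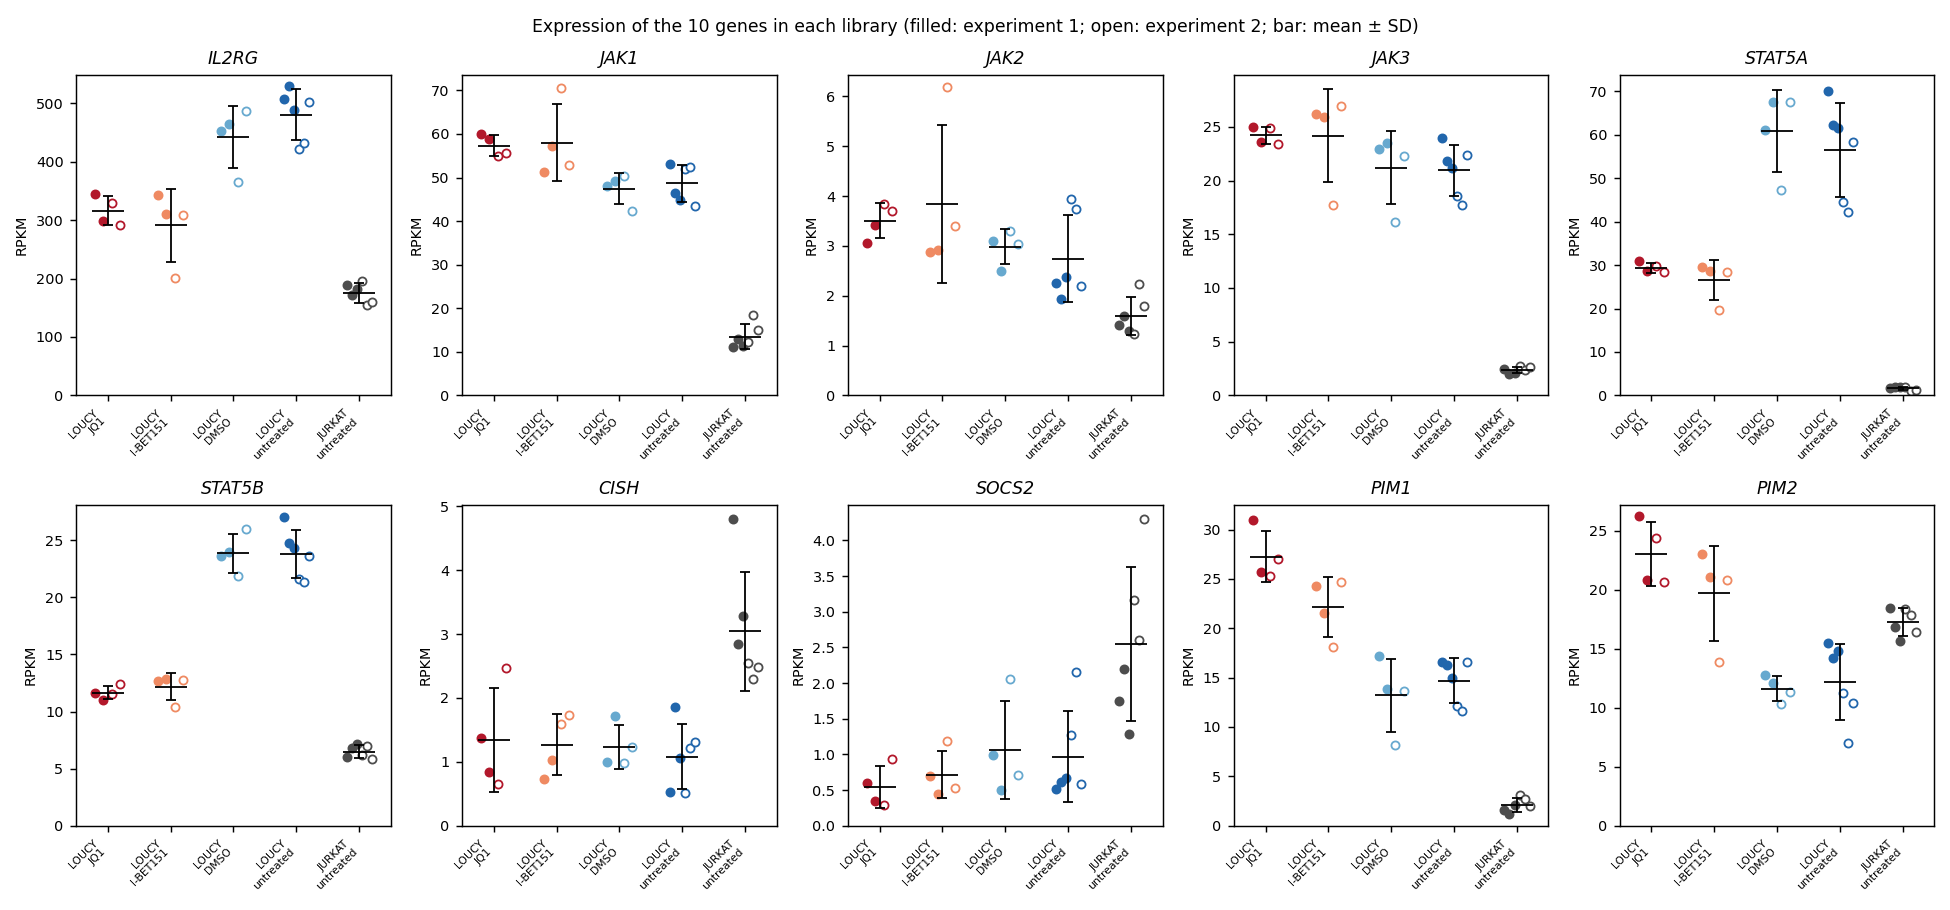
RPKM of each of the 10 genes (vertical axis, linear, a scale of its own per gene) in every library of the 5 groups, with filled points for experiment 1, open points for experiment 2 and a bar for the mean ± SD. STAT5A stands at 28.5 to 30.9 RPKM in JQ1 libraries and 47.3 to 67.6 in DMSO libraries, whereas PIM1 stands at 25.3 to 31.0 and 8.15 to 17.2 RPKM in the same groups.

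IL2RG (chromosome X, 71107404 to 71111577, GRCh38) had the highest level of the 10 genes in every group. Its levels, in the order experiment 1 replicates 1 and 2, then experiment 2 replicates 1 and 2, were 344, 299, 329 and 292 RPKM with JQ1, 343, 311, 201 and 309.5 RPKM with I-BET151, and 452, 465, 365 and 487 RPKM with DMSO. Every library of either inhibitor was below every DMSO library, and the lowest value came from the I-BET151 library with the steepest GC slope. IL2RG fell by 0.48 ± 0.13 on the log2 scale with JQ1 (SE; limma adjusted p = 0.00901) and by 0.62 ± 0.13 with I-BET151 (limma adjusted p = 0.00129). The JQ1 call was lost when limma's voom was run on recovered read numbers (adjusted p = 0.0574). Within experiments 1 and 2 the differences were -0.51 and -0.44 with JQ1 and -0.49 and -0.76 with I-BET151, and the experiment 2 values did not pass the threshold alone (limma adjusted p = 0.419 and 0.127).

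Between the lines, IL2RG was 2.74-fold higher in untreated LOUCY (lowest 422, median 496, highest 531 RPKM) than in JURKAT (lowest 155, median 177, highest 196 RPKM). The log2 difference was 1.45 ± 0.07 (limma adjusted p = 8.85e-11), and the groups did not overlap. One limit concerns how the gene is counted: 50.8% of its exonic bases lie in exons of the annotated gene AL590764.2 on the same strand, which is not listed in the table, and 66.1% of the 50-base stretches of its transcript also occur there. How reads shared between the genes were counted is not stated.

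The private chains that pair with IL2RG were far lower, and 3 of the 4 tested changed in the same direction as IL2RG. IL2RB, the signalling chain for interleukins 2 and 15, averaged 1.72 ± 0.24 RPKM with JQ1, 1.62 ± 0.49 with I-BET151, 4.39 ± 1.10 with DMSO, 5.69 ± 1.49 in untreated LOUCY and 0.0927 ± 0.095 in JURKAT. IL9R averaged 0.751 ± 0.10 RPKM with JQ1, 0.690 ± 0.227 with I-BET151, 4.02 ± 0.83 with DMSO, 4.78 ± 0.39 in untreated LOUCY and 1.15 ± 0.25 in JURKAT, and is uncertain because near-identical copies of it exist in the genome. Of the 7 such chains, 4 passed the filter. IL2RB, IL9R and IL15RA fell with both inhibitors and were higher in LOUCY than in JURKAT, and IL4R passed no test. Over all genes 15.9% fell with JQ1, 15.9% fell with I-BET151 and 35.5% were higher in LOUCY. IL9R reached at most 0.854 RPKM with JQ1 and 0.901 with I-BET151, so it passed the filter of the LOUCY fit only through DMSO and untreated libraries. IL2RB reached at most 0.253 RPKM in JURKAT and passed the filter between the lines only through LOUCY. The fall of IL2RB was -0.96 ± 0.17 on the log2 scale with JQ1 and -1.03 ± 0.17 with I-BET151 (limma adjusted p = 0.000381 and 0.000208). IL7R, IL2RA and IL21R did not reach the filter, with means of 0.184 to 0.435 RPKM for IL7R, the interleukin 7 receptor chain, over the 5 groups.

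Among the kinases, JAK1 was the main form everywhere and JAK3, which binds the common gamma chain, was the one that separated the lines most. JAK1 (chromosome 1, 64833229 to 65067746) made up 67.2% ± 2.7 of the summed JAK1, JAK2 and JAK3 RPKM in untreated LOUCY and 76.9% ± 2.1 in JURKAT. JAK3 (chromosome 19, 17824782 to 17847982) made up 23.9% to 32.9% in untreated LOUCY libraries and 10.3% to 16.9% in JURKAT libraries. JAK2 (chromosome 9, 4984390 to 5129948), which serves other receptors such as that for erythropoietin, was the lowest in all groups.

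JAK3 had a lowest, median and highest value of 17.7, 21.5 and 24.0 RPKM in untreated LOUCY and of 2.02, 2.43 and 2.76 RPKM in JURKAT. The groups were far apart, with a log2 difference of 2.69 ± 0.10 (limma adjusted p = 1.07e-12), or 8.76-fold in mean RPKM. JAK1 was 3.61-fold higher in LOUCY (48.7 ± 4.2 against 13.5 ± 2.8 RPKM, log2 difference 1.80, limma adjusted p = 3.39e-10). JAK2 was higher by less, at 2.74 ± 0.87 RPKM in LOUCY and 1.59 ± 0.38 RPKM in JURKAT, and the libraries overlapped (log2 difference 0.51 ± 0.13, limma adjusted p = 0.00188).

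None of JAK1, JAK2 and JAK3 passed the threshold under either inhibitor. JAK1 had 60.0, 58.7, 54.8 and 55.7 RPKM with JQ1, 51.3, 57.3, 70.7 and 52.9 with I-BET151, and 48.1, 49.2, 50.3 and 42.3 with DMSO. Although each library of both inhibitors was above each DMSO library, the differences of 0.27 and 0.28 on the log2 scale did not pass the threshold (95% intervals 0.04 to 0.50 and 0.05 to 0.50; limma adjusted p = 0.0783 and 0.0690). They did pass with recovered reads (voom adjusted p = 0.0175 and 0.0292) and with the GC trend of each library removed (limma adjusted p = 0.0211 and 0.0258). JAK2 differed by 0.18 (95% interval -0.16 to 0.51) with JQ1 and 0.24 (-0.10 to 0.57) with I-BET151. JAK3 differed by 0.20 (-0.07 to 0.47) and 0.18 (-0.09 to 0.45), and passed the threshold only with the GC trend removed (limma adjusted p = 0.0136 and 0.00375). GC content was 39.2% for JAK2, 46.2% for JAK1 and 58.5% for JAK3, and in the I-BET151 library with the steepest slope JAK2 was the highest of its group (6.19 RPKM) and JAK3 the lowest (17.7 RPKM).

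STAT5A and STAT5B are close relatives on opposite strands of chromosome 17 (STAT5A at 42287439 to 42311943 and STAT5B at 42199177 to 42288370). Their annotated spans overlap at the ends. STAT5A showed the widest gap between the lines of the 10 genes. It ranged over 42.2 to 70.1 RPKM with a median of 59.9 in untreated LOUCY, and over 1.12 to 1.97 RPKM with a median of 1.81 in JURKAT. The lowest LOUCY library was thus far above the highest JURKAT library, and the means differed 34.9-fold (log2 difference 4.45 ± 0.10, limma adjusted p = 5.41e-15). STAT5B differed less, 3.66-fold, with 23.8 ± 2.1 RPKM in LOUCY and 6.50 ± 0.57 RPKM in JURKAT (log2 difference 1.73 ± 0.08, limma adjusted p = 1.92e-11).

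The balance between the pair therefore differed by line. STAT5A made up 70.0% ± 2.5 of summed STAT5 RPKM in untreated LOUCY, against 19.8% ± 3.8 in JURKAT. It stayed at 71.6% ± 1.4 with JQ1 and 68.4% ± 2.0 with I-BET151, against 71.6% ± 2.3 with DMSO. Of the 50-base stretches of the STAT5A transcript, 11.9% also occur in STAT5B, and how reads from these were counted is not stated.

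Both STAT5 genes fell under either inhibitor, to means between 0.436 and 0.510 times those with DMSO. STAT5A had 30.9, 28.6, 29.7 and 28.5 RPKM with JQ1, 29.5, 28.6, 19.7 and 28.5 with I-BET151, and 61.1, 67.5, 47.3 and 67.6 with DMSO. The inhibitor libraries lay close together and well below the DMSO libraries, and the low I-BET151 and DMSO values at replicate 1 of experiment 2 came from libraries with steep GC slopes. STAT5A fell by 1.01 ± 0.14 and 1.17 ± 0.14 on the log2 scale (limma adjusted p = 2.42e-05 and 5.20e-06). STAT5B had 11.6, 11.0, 11.5 and 12.4 RPKM with JQ1, 12.7, 12.8, 10.4 and 12.7 with I-BET151, and 23.6, 23.9, 21.9 and 26.0 with DMSO. No library overlapped between either inhibitor and DMSO, and STAT5B fell by 0.97 ± 0.10 and 0.92 ± 0.10 (limma adjusted p = 8.27e-07 and 1.77e-06).

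The STAT5 falls had similar sizes within each experiment. STAT5A differed by -1.09 and -0.94 in experiments 1 and 2 with JQ1, and by -1.12 and -1.22 with I-BET151. STAT5B differed by -1.01 and -0.94 with JQ1 and by -0.85 and -0.99 with I-BET151. In experiment 2 alone the JQ1 difference of STAT5A did not pass the threshold (limma adjusted p = 0.0886). The summed T-lineage markers, CD79A and NKG7 were also lower in the inhibitor libraries than with DMSO (CD79A 243 ± 49 RPKM with JQ1, 223 ± 72 with I-BET151 and 402 ± 104 with DMSO), and their part in the falls of IL2RG, STAT5A and STAT5B was not tested.

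CISH and SOCS2, which encode SH2-domain inhibitors that STAT5 itself induces, were the least expressed of the 10 genes in LOUCY and went against the pathway's upper parts: both were lower in LOUCY, where STAT5 was higher. CISH (chromosome 3, 50606489 to 50611774) was alone among the 9 genes with a RefSeq promoter window in holding TTCNNNGAA, the core letters that STAT dimers are known to bind. The search covered 250 bases before to 50 after each annotated start (16 windows for the 9 genes, SOCS2 not among them), and the letters read the same on both strands. They occur in 7.66% of the 35116 windows of all genes, and 0.0484% of windows hold 3 or more. The CISH window holds 4, whose first bases lie at positions -241, -230, -129 and -112 relative to the start, and is shown because no other member window has the letters. It lies at chr3:50611725-50612024 on the minus strand (RefSeq, GRCh38.p14) and is printed 5′ to 3′ with the matches in capitals.
CISH promoter: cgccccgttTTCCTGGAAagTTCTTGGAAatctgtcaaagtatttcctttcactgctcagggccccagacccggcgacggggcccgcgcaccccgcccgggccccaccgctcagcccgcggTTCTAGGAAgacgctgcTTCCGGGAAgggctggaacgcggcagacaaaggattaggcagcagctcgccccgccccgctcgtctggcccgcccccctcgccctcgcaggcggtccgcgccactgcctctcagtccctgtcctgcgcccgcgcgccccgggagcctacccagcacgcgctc
A match is a description of letters, and no binding was measured.

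CISH had a lowest, median and highest level of 0.514, 1.14 and 1.85 RPKM in untreated LOUCY and of 2.29, 2.70 and 4.81 RPKM in JURKAT. All LOUCY libraries lay below all JURKAT libraries (log2 difference -0.97 ± 0.16, limma adjusted p = 6.20e-05). Under treatment CISH had 1.37, 0.847, 0.658 and 2.47 RPKM with JQ1, 0.726, 1.03, 1.59 and 1.73 with I-BET151, and 0.993, 1.71, 0.987 and 1.24 with DMSO. These groups overlapped throughout, with differences of 0.02 (95% interval -0.47 to 0.50) and 0.01 (-0.47 to 0.50), on 8 to 26 reads per library. Differences within these intervals are not excluded, and at this depth the test could miss them.

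SOCS2 (chromosome 12, 93569969 to 93626236) was also lower in LOUCY. Its lowest, median and highest levels were 0.515, 0.639 and 2.15 RPKM in untreated LOUCY and 1.28, 2.40 and 4.30 RPKM in JURKAT. The libraries overlapped, with a log2 difference of -0.85 ± 0.15 (limma adjusted p = 0.000119). At least 1 RPKM was reached in 8 of the 12 untreated libraries, among them every JURKAT library. SOCS2 thus passed the filter of this comparison only through JURKAT, where it was higher, though the call also held with no filter. Under treatment it had 0.595, 0.343, 0.286 and 0.934 RPKM with JQ1, 0.700, 0.449, 1.19 and 0.525 with I-BET151, and 0.993, 0.495, 2.05 and 0.714 with DMSO. These ranges overlapped, and the differences were -0.39 (95% interval -0.84 to 0.06) and -0.23 (-0.68 to 0.22). SOCS2 reached 1 RPKM in 4 of the 18 LOUCY libraries, the smallest number that passes the filter, and 3 of the 4 were the libraries with steep GC slopes. Without these 3 libraries the JQ1 difference was -0.20. The libraries do not mark strand, and 4.26% of the exonic bases of CISH overlap MAPKAPK3 and 4.09% of those of SOCS2 overlap SOCS2-AS1 on the opposite strand.

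PIM1 and PIM2 are serine/threonine kinases that need no partner or phosphorylation for activity, so that their output follows their abundance. In the comparison of lines they went opposite ways. PIM1 (chromosome 6, 37170152 to 37175428) had 11.6, 15.6 and 16.6 RPKM as lowest, median and highest in untreated LOUCY and 1.19, 2.05 and 3.08 RPKM in JURKAT, a 6.97-fold higher mean in LOUCY with no overlap (log2 difference 2.35 ± 0.15, limma adjusted p = 1.00e-09). PIM2 (chromosome X, 48913182 to 48919024) had 6.98, 12.7 and 15.5 RPKM in LOUCY and 15.7, 17.3 and 18.5 RPKM in JURKAT, lower in LOUCY with no overlap (log2 difference -0.51 ± 0.13, limma adjusted p = 0.00259). PIM2 thus made up 44.8% ± 5.3 of summed PIM1 and PIM2 RPKM in LOUCY and 89.2% ± 3.0 in JURKAT.

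The PIM2 difference between the lines passed the threshold in experiment 2 alone but not in experiment 1 alone. It was -0.18 in experiment 1 (limma adjusted p = 0.148) and -0.84 in experiment 2 (limma adjusted p = 0.00195). PIM1 differed by 2.71 and 2.00 in the same experiments. Whether the line difference itself differed between experiments was tested with limma's interaction term, and neither PIM2 nor PIM1 passed the adjustment over all genes (limma adjusted p = 0.396 and 0.447).

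**Figure D2:**
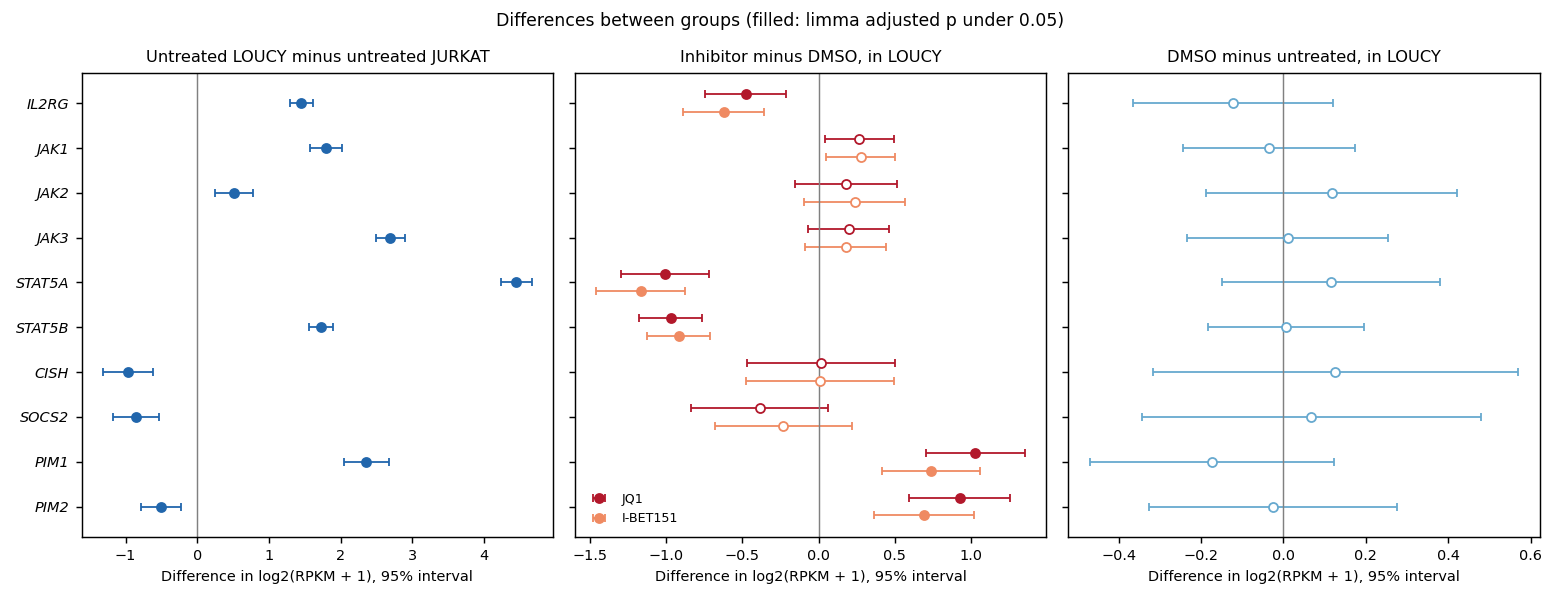
Difference in log2(RPKM + 1) with its 95% interval (horizontal axis, scaled per panel) for the 10 genes in 4 comparisons, with filled points for limma adjusted p under 0.05. STAT5A and STAT5B lie between -1.17 and -0.92 and PIM1 and PIM2 between 0.69 and 1.03 under both inhibitors, and no point of the panel for DMSO against untreated cells is filled.

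With BET inhibition both PIM genes rose. PIM1 had 31.0, 25.7, 25.3 and 27.0 RPKM with JQ1, 24.2, 21.6, 18.1 and 24.7 with I-BET151, and 17.2, 13.8, 8.15 and 13.6 with DMSO. Each inhibitor library exceeded every DMSO library, and the lowest I-BET151 and DMSO values came from the libraries with steep GC slopes. The means were 2.07 times and 1.68 times the DMSO mean, with log2 differences of 1.03 ± 0.15 for JQ1 and 0.74 ± 0.15 for I-BET151 (limma adjusted p = 6.55e-05 and 0.00164).

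PIM2 had 26.2, 20.8, 24.4 and 20.7 RPKM with JQ1, 23.0, 21.1, 13.9 and 20.8 with I-BET151, and 12.7, 12.1, 10.3 and 11.4 with DMSO. Here too no inhibitor library reached down to the DMSO range. The means were 1.98 and 1.70 times the DMSO mean, with log2 differences of 0.93 ± 0.16 and 0.69 ± 0.16 (limma adjusted p = 0.000236 and 0.00299). The inhibitor levels were above those of untreated JURKAT for PIM1 in all libraries, while for PIM2 the I-BET151 range of 13.9 to 23.0 RPKM covered the JURKAT range.

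Within experiments 1 and 2, PIM1 differed by 0.83 and 1.23 with JQ1 and by 0.54 and 0.94 with I-BET151. PIM2 differed by 0.86 and 0.99 with JQ1 and by 0.78 and 0.61 with I-BET151. All were positive, but in experiment 2 alone the JQ1 difference of PIM2 and the I-BET151 differences of both genes did not pass the threshold (limma adjusted p = 0.0837, 0.0996 and 0.262).

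Set side by side, STAT5 and PIM moved apart under the inhibitors. The sum of STAT5A and STAT5B was 41.1 ± 1.2 RPKM with JQ1, 38.7 ± 5.8 with I-BET151, 84.7 ± 11.0 with DMSO, 80.3 ± 13.0 in untreated LOUCY and 8.11 ± 0.76 in JURKAT. The sum of PIM1 and PIM2 was 50.3 ± 4.8 RPKM with JQ1, 41.9 ± 6.9 with I-BET151, 24.8 ± 4.7 with DMSO, 26.9 ± 5.1 in untreated LOUCY and 19.4 ± 1.5 in JURKAT. The ratio of PIM to STAT5 RPKM was 1.22 ± 0.08 with JQ1 and 1.08 ± 0.04 with I-BET151, against 0.292 ± 0.041 with DMSO, and 0.333 ± 0.022 in untreated LOUCY against 2.41 ± 0.32 in JURKAT. This ratio describes values already tested gene by gene and was given no test of its own. The ratio in the I-BET151 library with the steepest GC slope lay within the range of its group (1.03 to 1.12), although both of its sums were the lowest of that group.

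**Figure D3:**
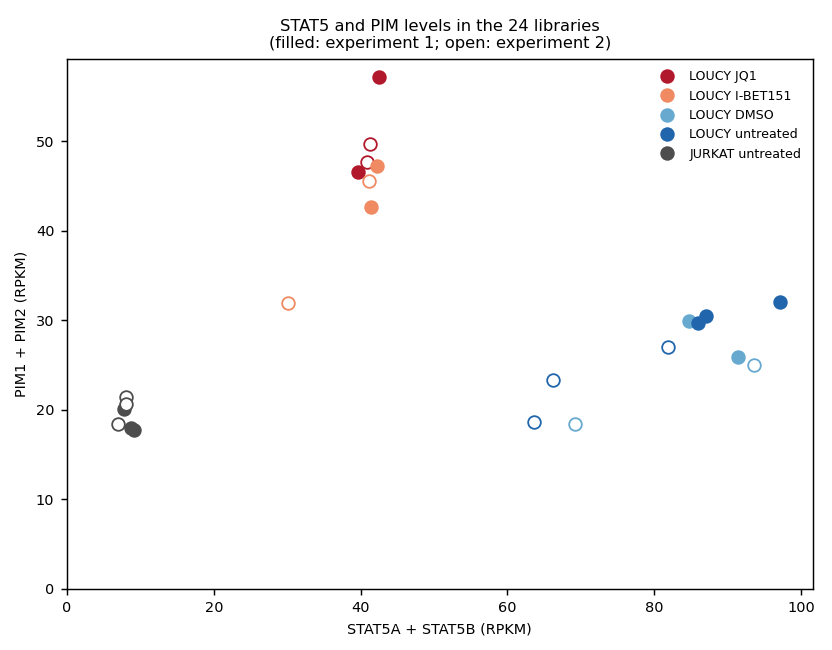
Summed RPKM of PIM1 and PIM2 (vertical axis) against summed RPKM of STAT5A and STAT5B (horizontal axis), 1 point per library, filled for experiment 1 and open for experiment 2. Libraries with JQ1 or I-BET151 stand at 30.1 to 42.5 RPKM of STAT5 and 32.0 to 57.2 of PIM, away from DMSO and untreated LOUCY libraries (63.6 to 97.1 and 18.5 to 32.0) and from JURKAT (6.95 to 9.17 and 17.7 to 21.5).

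The solvent alone moved none of the 10 genes past the threshold. In DMSO against untreated LOUCY, 0 of 10 passed limma's test and 0 had an unadjusted p under 0.05. Limma called 0.175% of all genes tested (20 of 11411), 0.0263% higher and 0.149% lower. At an unadjusted p under 0.05 there were 1100, and voom called 7. The libraries of all 10 genes overlapped. Overlap was not counted over all genes in any comparison. Differences ranged from -0.17 (PIM1) to 0.13 (CISH). JQ1 against I-BET151 gave 0 calls among the 10 genes and 0.00% over all genes with limma (531 at an unadjusted p under 0.05; 0 with voom). The widest difference was PIM1, 27.3 ± 2.6 RPKM with JQ1 and 22.2 ± 3.0 with I-BET151, where each JQ1 library was above each I-BET151 library (log2 difference 0.29, 95% interval -0.03 to 0.62). The other 9 genes overlapped, with STAT5A at 0.16 (-0.13 to 0.45) and STAT5B at -0.05 (-0.26 to 0.15). The doses were not matched, so these are differences between groups and not between compounds at equal dose. Over the 5 comparisons, 0 of 50 tests of the 10 genes for a difference between experiments passed the threshold (limma, lowest adjusted p = 0.396; 2 with an unadjusted p under 0.05).

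The order of levels over the 5 groups took 4 forms. IL2RG, STAT5A and STAT5B were highest in the DMSO and untreated LOUCY libraries, which overlapped, then in both inhibitor groups, which overlapped each other, then in JURKAT. JAK1, JAK2, JAK3 and PIM1 had their highest means with the inhibitors and their lowest in JURKAT. CISH and SOCS2 were highest in JURKAT, with all 4 LOUCY groups overlapping. PIM2 was highest with the inhibitors, then in JURKAT, then in DMSO and untreated LOUCY.

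The wider pathway was described with 6 lists of 81 other genes, 71 of them in the table. Between the lines 53 were tested, of which 26 were higher in LOUCY, 17 lower and 10 not past the threshold, with a median log2 difference of 0.25 beside -0.02 for all genes. With JQ1 and likewise with I-BET151, 6 of 51 rose, 15 fell and 30 did not pass, with medians of -0.04 and -0.06. Over all genes 35.5% were higher and 37.5% lower in LOUCY than in JURKAT, 10.1% rose and 15.9% fell with JQ1, and 10.3% and 15.9% with I-BET151. With DMSO against untreated cells 0 of the 51 passed.

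Other receptor chains changed in both directions. Of 11 tested, 3 rose and 5 fell with JQ1, and 3 rose and 4 fell with I-BET151. Over all genes 26.0% and 26.3% were called. IL27RA, a chain of the interleukin 27 receptor, averaged 4.89 ± 0.28 RPKM with JQ1, 5.63 ± 1.93 with I-BET151, 11.99 ± 3.31 with DMSO, 13.4 ± 1.6 in untreated LOUCY and 3.28 ± 0.45 in JURKAT. It fell by 1.10 ± 0.19 with JQ1 and 0.98 ± 0.19 with I-BET151 (limma adjusted p = 0.000335 and 0.00105). EPOR, the erythropoietin receptor, had 1.43 ± 0.72 RPKM with JQ1, 1.46 ± 0.59 with I-BET151 and 4.12 ± 1.59 with DMSO, with overlap. It fell by 1.07 ± 0.25 with JQ1 and 1.03 ± 0.25 with I-BET151 (limma adjusted p = 0.00336 and 0.00438), and its JQ1 difference of -0.40 in experiment 2 alone did not pass (limma adjusted p = 0.552). CRLF2, the TSLP receptor chain, fell by 0.59 with JQ1 and 0.62 with I-BET151 (limma adjusted p = 0.00651 and 0.00438) but was low, with 0 to 9 reads per library with JQ1, 2 to 8 with I-BET151 and 13 to 21 with DMSO. With only experiment 1 or only experiment 2, CRLF2 did not pass for I-BET151 (limma adjusted p = 0.0575 and 0.139). IL11RA, the interleukin 11 receptor chain, rose by 0.92 with JQ1 and 0.83 with I-BET151. It did not pass for I-BET151 in experiment 1 or 2 alone (limma adjusted p = 0.0695 and 0.0817), nor for JQ1 in experiment 2 alone (limma adjusted p = 0.0837). It averaged 6.61 ± 1.31 RPKM with JQ1, 6.16 ± 1.47 with I-BET151, 3.04 ± 0.80 with DMSO and 4.56 ± 0.99 in untreated LOUCY, which overlapped the inhibitor groups.

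Between the lines, 4 of the 11 were higher in LOUCY and 4 lower, beside calls at 73.1% of all genes. IL27RA and CRLF2 were higher by 1.75 and 1.12 on the log2 scale. IL10RB, shared by receptors of the interleukin 10 family, and IFNGR1, an interferon gamma receptor chain, were lower, with differences of -1.74 and -0.67. IFNGR1 rose with JQ1 (0.54 ± 0.14, limma adjusted p = 0.00799) and with I-BET151 (0.64 ± 0.14, limma adjusted p = 0.00260). IL10RB rose with JQ1 (0.54 ± 0.12, limma adjusted p = 0.00252), and its I-BET151 difference of 0.21 did not pass (limma adjusted p = 0.217). Of the 7 ligands, 2 were tested between the lines: IL15 was higher in LOUCY by 0.64 and TSLP lower (-1.27), both at low levels (at most 2.67 RPKM on average in either line).

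Under the inhibitors few of the 6 other JAK and STAT genes passed the threshold, and those rose. Over all genes 10.1% rose with JQ1 and 10.3% with I-BET151, and 6 genes are too few to read a trait of the family from. With JQ1 2 of 6 rose, STAT2, a transducer of type I interferon signals, by 0.77 ± 0.10 and STAT4, which answers interleukin 12, by 0.74 ± 0.12 (limma adjusted p = 1.37e-05 and 0.000141). With I-BET151 1 of 6 rose, STAT2 by 0.66 ± 0.10 (limma adjusted p = 8.98e-05), while the STAT4 difference of 0.32 did not pass (limma adjusted p = 0.0551). STAT2 had 28.1 ± 2.2 RPKM with JQ1, 25.9 ± 2.0 with I-BET151 and 16.0 ± 0.9 with DMSO, so that it went up where STAT5A and STAT5B went down. Between the lines 4 of 6 were higher in LOUCY, among them STAT4 by 1.86 and STAT2 by 0.97, and STAT6, which answers interleukin 4, was lower (-0.27). Over all genes 35.5% were higher in LOUCY and 37.5% lower.

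Of 17 inhibitors of the pathway tested, 1 rose and 3 fell with JQ1, and 2 rose and 3 fell with I-BET151, shares near those over all genes (26.0% and 26.3% called). PTPN6, the phosphatase SHP-1, fell by 0.97 ± 0.16 with JQ1 (50.7 ± 4.6 RPKM with JQ1 against 101.6 ± 18.1 with DMSO; limma adjusted p = 0.000223) and by 0.56 ± 0.16 with I-BET151 (limma adjusted p = 0.0160). CBLB, a ubiquitin ligase, rose by 0.65 and 0.62 with JQ1 and I-BET151 (limma adjusted p = 0.00693 and 0.00904). DUSP3, a phosphatase, fell by 0.68 and 0.56 (limma adjusted p = 0.00304 and 0.0125). In experiments 1 and 2 alone DUSP3 did not pass with JQ1 (limma adjusted p = 0.105 and 0.0763) or I-BET151 (0.152 and 0.154). SH2B3, the adaptor LNK that restrains JAK2 signals, fell by 0.49 with JQ1 and 0.47 with I-BET151 (limma adjusted p = 0.00383 and 0.00544). PTPRC, the phosphatase CD45, rose by 0.41 with I-BET151 (limma adjusted p = 0.0143), a call lost when replicate 2 of DMSO in experiment 1 was left out (limma adjusted p = 0.0562). Its JQ1 difference of 0.29 did not pass (limma adjusted p = 0.0764). Between the lines 8 of 18 were higher in LOUCY, with the smallest adjusted p for PTPRC (1.56) and PTPN6 (1.08), and 6 were lower, with the smallest adjusted p for SOCS6 (-1.12) and PTPN2 (-0.93), a phosphatase that acts on JAK1 and JAK3.

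Other genes known as STAT5 targets fell or passed no test under the inhibitors, unlike PIM1 and PIM2. Of 12 tested, 0 rose and 4 fell with JQ1, and 0 rose and 5 fell with I-BET151. Over all genes 10.1% rose and 15.9% fell with JQ1, and 10.3% rose and 15.9% fell with I-BET151. BCL2, which blocks cell death, averaged 0.605 ± 0.213 RPKM with JQ1, 0.769 ± 0.310 with I-BET151, 3.83 ± 0.56 with DMSO, 4.48 ± 0.89 in untreated LOUCY and 1.08 ± 0.23 in JURKAT. It fell by 1.59 ± 0.16 and 1.46 ± 0.16 (limma adjusted p = 5.17e-07 and 1.67e-06). CCND2, a D-type cyclin, fell by 0.73 and 0.84 (limma adjusted p = 0.000210 and 5.71e-05). It averaged 6.64 ± 0.85 RPKM with JQ1, 6.08 ± 0.47 with I-BET151, 11.8 ± 2.5 with DMSO and 8.70 ± 0.65 in untreated LOUCY. The DMSO level was thus above the untreated level, by 0.38 on the log2 scale (limma adjusted p = 0.189). In experiment 2 alone the JQ1 difference of CCND2 did not pass (limma adjusted p = 0.0636). Between the lines 6 of the 12 were higher in LOUCY and 5 lower, beside calls at 73.1% of all genes. ID2 and BCL6, both regulators of lymphoid development, were higher by 4.35 and 2.48, and MYC (0.0754 ± 0.0637 RPKM in LOUCY and 184.7 ± 24.7 RPKM in JURKAT) and ID1 (0.656 ± 0.369 and 28.1 ± 2.6 RPKM) were lower.

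**Figure D4:**
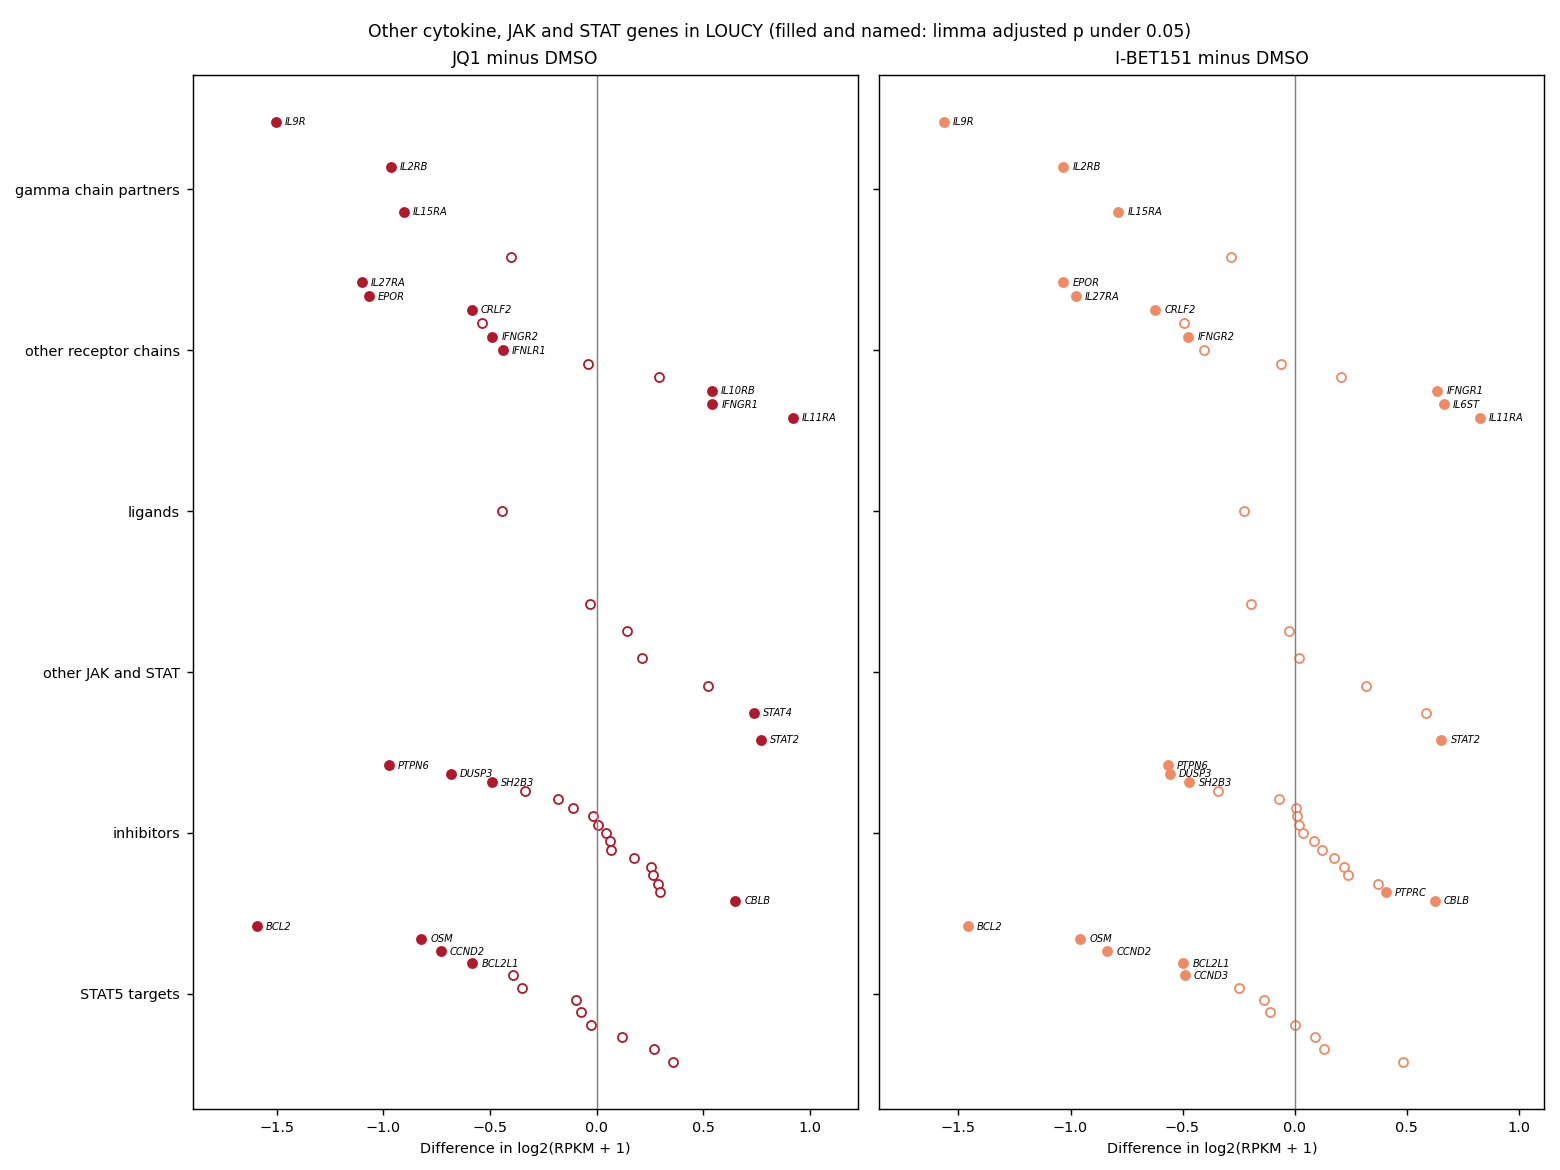
Difference in log2(RPKM + 1) for each tested gene of the 6 lists (rows; genes within a row are sorted by their difference), JQ1 minus DMSO on the left and I-BET151 minus DMSO on the right, filled and named where the limma adjusted p was under 0.05. The STAT5 targets with filled points all lie left of 0, with BCL2 at -1.59 and -1.46, and STAT2 lies right of 0 in both panels.

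Genes with the most similar course over the 18 LOUCY libraries were taken as the highest Pearson r of log2(RPKM + 1) among 7558 genes with a mean of at least 5 RPKM. For PIM2 these were CIRBP (r = 0.973) and CHCHD7 (r = 0.959), and for PIM1 they were CSTB (r = 0.965) and TK1 (r = 0.964). SOCS2 was most like URI1 and METTL4 (r = 0.871 for both). CISH had no close match, with MYSM1 (r = 0.603) and FGD5-AS1 (r = 0.564) at the top. The libraries share treatment groups, experiments and GC slopes, so these values describe likeness only.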

How the data were processed

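RNA-seq of 24 libraries measured polyadenylated RNA. Per the labels' protocols, Smart-seq2 cDNA was tagmented with Nextera XT, which leaves strand unmarked. The authors deposited RPKM values for 15862 genes. The submitters' processing notes name edgeR 3.10.5, featureCounts, STAR 2.5.1b and Subread 1.4.5-p1, with build hg38. The annotation, gene lengths and treatment of multi-mapping reads are not stated there. Whole reads were recovered from the steps of the RPKM values in 100% of genes (within 0.01 reads), checked on a simulated table. Totals were 4381134 to 7074198 reads per library, which sets the precision of low genes.

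Values were analysed as log2(RPKM + 1), a scale that understates changes of low genes. Genes were kept that reached 1 RPKM in 4 or more of a fit's libraries. A gene could thus pass through 1 group alone, as SOCS2 did through JURKAT in the comparison of lines. Among others, MYC, SOCS6 and TSLP stayed below 1 RPKM in untreated LOUCY (at most 0.142, 0.0855 and 0.728). IL2RB and CRLF2 did so in JURKAT (at most 0.253 and 0.155). The calls of such genes between the lines, and the list counts that hold them, are thus partly set by the filter. In the LOUCY fit IL9R and CRLF2 stayed below 1 RPKM with both inhibitors. The limma package 3.58.1 (R 4.3.3, statmod 1.5.0) fitted groups and an additive experiment term, with a mean-variance trend and Benjamini-Hochberg adjustment over all genes (two-sided, threshold 0.05). The script was tested on simulated data. The lines were compared in a fit of the 12 untreated libraries, and the other comparisons shared a fit of 18 LOUCY libraries. Alternatives covered the pseudocount, filter, scaling, recovered reads with voom, a replicate block, each experiment alone, GC content and each library left out. Promoter windows were RefSeq's on GRCh38.p14. The 10 genes, the pathway lists and the tests were chosen with earlier results of these data known. Besides the 10 genes and the chains that pair with IL2RG, the text names up to 2 genes per list and direction with the smallest adjusted p in a comparison, and a few others (MAPKAPK3, SOCS2-AS1 and AL590764.2) for their overlap. One gene of the lists and one marker are not reported here and enter no list count, though the fits include all genes.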

Additional observations from a re-analysis of the deposited data

Results flagged for a closer look

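Of 205 groups of 4 or 6 libraries, 1 per gene and condition, 18 held a library that stood apart from the rest of its group, where chance flags about 1 in 20 groups. Of these, 5 concerned the 10 genes. In replicate 1 of I-BET151 in experiment 2, which had the steepest GC slope, JAK2 was high at 6.19 RPKM (others 2.87 to 3.39), and JAK3 was low at 17.7 RPKM (others 25.9 to 26.9). In the same library STAT5A was low at 19.7 RPKM (others 28.5 to 29.5) and STAT5B at 10.4 RPKM (others 12.7 to 12.8). In replicate 1 of DMSO in experiment 2, also of steep GC slope, JAK3 was low at 16.1 RPKM (others 22.3 to 23.5).

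The same I-BET151 library also stood apart for BCL6 (9.01 RPKM, low), IL15 (1.78 RPKM, high) and PTPN6 (44.9 RPKM, low). The same DMSO library stood apart for IFNGR1 (30.8 RPKM, high), IL10RB (4.95 RPKM, low) and PTPN6 (74.7 RPKM, low). The remaining 7 were spread over other libraries: CRLF2 at 0.375 RPKM with I-BET151 (experiment 1 replicate 1, high) and at 0.155 RPKM in JURKAT (experiment 1 replicate 1, high), SOCS6 at 0.368 RPKM with JQ1 (experiment 2 replicate 2, high), STAT6 at 15.5 RPKM in untreated LOUCY (experiment 2 replicate 3, high), and in JURKAT BCL2 at 0.617 RPKM (experiment 1 replicate 2, low), IL15RA at 1.31 RPKM (experiment 2 replicate 1, high) and IL7R at 1.01 RPKM (experiment 2 replicate 2, high).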

How the results depend on the processing

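Of 1290 recomputed differences of the 10 genes, 1272 kept their direction where called and their side of the threshold, 8 lost a call and 10 gained one, the gains all for JAK1 or JAK3. In experiment 2 alone (2 libraries a group) JQ1 called 1 of the 10 genes higher and 1 lower, I-BET151 called 0 higher, and of the other pathway genes JQ1 called 0 higher and 2 lower and I-BET151 called 0 higher and 3 lower. That setting called 392 genes in all with JQ1 and 454 with I-BET151. With the GC trend removed, both inhibitors called 4 of the 10 genes higher. Without the 3 libraries of steep GC slope JQ1 called 10 other pathway genes higher. These inhibitor counts were not set against the share of all genes called at the same setting. They thus cannot be read as a result about these genes, and whether they are particular to them was not tested. DMSO against untreated cells called 1 other pathway gene lower in experiment 1 alone and with the GC trend removed, and JQ1 against I-BET151 called 1 lower in experiment 1 alone. Over all genes, DMSO against untreated cells called 7 with voom, 57 and 0 in experiments 1 and 2 alone, 34 without the 3 libraries, 110 with the GC trend removed and 12 to 67 with 1 library left out. JQ1 against I-BET151 called 1 gene in experiment 1 alone and 1 without the 3 libraries. The cause was not tested.

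Replicate numbers showed no clear pairing of the libraries. Of 42 same-numbered pairs, 15 had deviations correlated above 0.1. Their r ranged from -0.581 to 0.684 (median r = 0.0123, against -0.00528 for other pairs). In groups of 2 libraries per experiment the deviations from the mean mirror each other, so these values cannot settle whether numbers pair libraries. A replicate block changed no call among the 10 genes and moved the all-gene count of DMSO against untreated cells to 4. Depth limits CISH and SOCS2, measured on 6 to 99 reads per library.

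Leaving out 1 library at a time ended no call among the 10 genes. JAK1 passed the threshold with JQ1 without replicate 1 of I-BET151 in experiment 2 (limma adjusted p = 0.0281), and with I-BET151 without replicate 1 of I-BET151 in experiment 1 or replicate 2 in experiment 2 (limma adjusted p = 0.0481 and 0.0475). Of 1101 recomputed differences of the named pathway genes, 27 lost a call, 22 of them in experiment 2 alone.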
